A study of Rattus norvegicus with 6 samples.

Results

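The proteasome genes of the rat renal cortex were examined in animals given 2,2-bis(bromomethyl)-1,3-propanediol (BBMP) and in controls. Members were taken by symbol, from Psma to Psmg followed by a digit, without the interferon-inducible Psmb8, Psmb9, Psmb10, Psme1 and Psme2, by matching RefSeq transcripts to array probes. Of 97 such symbols in the RefSeq table, 48 are pseudogenes, for which no probe was matched, and 49 are protein-coding, of which 41 had a probe. All 41 were well above background on all 6 arrays, so none depended on 1 group to pass the filter, and they are 41 of 31582 genes or sequences tested. The other 8 coding symbols, Psmd11, Psmg1, Psmg3, Psmb11 and the copies Psmb3l1, Psmb3l2, Psmb6l1 and Psmg4l1, had no matched probe and were not analysed here. Of the 41, 39 encode proteasome subunits, their assembly chaperones or direct regulators. Psmc3ip and Psme3ip1 come in by symbol alone: they encode partner proteins named after a subunit.

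BBMP, a brominated flame retardant, was given at 1000 mg/kg/day for 4 weeks to 3 male Sprague-Dawley (Crl:CD(SD)) rats bought at 5 weeks of age. The 3 control rats of the same sex, strain and age received the vehicle, corn oil, for 4 weeks. Total RNA of each renal cortex was labelled with Cy3 and hybridised to 1 one-colour Agilent array. The BBMP arrays shared 1 slide and 1 scan and the control arrays shared another, and the effects of slide, scan and compound cannot be told apart. In tissue RNA, fewer cells of a type and less RNA per cell cannot be told apart either.

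The proteasome is the barrel-shaped protease that degrades ubiquitin-tagged proteins. Its core consists of outer alpha rings, which control entry, and inner beta rings, which hold the protease sites. A regulatory cap, built from a lid and a base that includes an ATPase ring, binds the ubiquitin chain, removes it and unfolds the substrate. Chaperone proteins assemble core and cap, and subunit genes are known to be raised together by the transcription factor NFE2L1 through antioxidant response elements in their promoters. The kidney cortex consists largely of proximal tubule cells, which turn over much protein.

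Proteasome transcripts differed little between BBMP and control cortex. Limma called 3 of the 41 members lower in BBMP (adjusted p under 0.05): Psma5 of the alpha ring, Psmd7 of the lid and the cap chaperone gene Psmd5, by 17.1%, 20.2% and 16.7%. None was called higher, with 1 at an unadjusted p under 0.05, while 11 had an unadjusted p under 0.05 in the lower direction. These were 2.44% and 26.8% of the members (29.3% together), against 21.5% and 15.1% of all genes (36.6% together). Of all genes tested, 17.9% were called, 7.68% lower and 10.2% higher in BBMP, so the members called lower (7.32%) were at about the background share. The groups did not overlap in 13 members that were lower in BBMP (31.7%) and in 10 that were higher (24.4%), against 18.6% and 25% of all genes (43.6% in either direction). The median log2 difference, BBMP minus control, was -0.042 over the members and 0.049 over all genes. Among 4218 genes whose mean signal lay between the members' quartiles (2.02 and 4.42), the median was -0.0042, with 10.4% called lower and 9.55% called higher (19.9% together). In that range the groups did not overlap in 26.9% with BBMP lower and in 25.3% with BBMP higher (52.2% together). With normexp background correction 8 members were called lower and 1 higher, with median scaling 9 lower and 0 higher, and the members' median was -0.019 and -0.12. Of all calls, 57.1% were higher in BBMP, against 36.4% with normexp, 35.9% with median scaling and 46.6% with cyclic loess. All signals here are log2 of the processed signal over the array's 75th percentile.

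The same comparison was made array by array. The median over members of the signal minus the gene's control mean was -0.042, -0.030 and -0.032 on the BBMP arrays, against 0.014, -0.0096 and 0.011 on the control arrays. For all genes these medians were 0.045, 0.045 and 0.053 on the BBMP arrays and -0.0085, -0.00031 and 0.0097 on the control arrays. All 3 BBMP arrays thus lay below all 3 control arrays over the members, and above them over all genes. For genes between the members' quartiles of signal, the medians were -0.013, 0.0083 and 0.0012 on the BBMP arrays. On the control arrays these were -0.0062, -0.0035 and 0.010, so the ranges overlapped. The alpha ring gave -0.10, -0.20 and -0.17 on the BBMP arrays, against -0.0093, -0.0023 and 0.015 on the control arrays. In the beta ring the medians were 0.012, 0.019 and -0.0096 on the BBMP arrays and -0.0075, -0.011 and 0.0093 on the control arrays, so the ranges of the groups overlapped. The ranges also overlapped in the ATPase ring (-0.034, 0.0095 and -0.015 in BBMP, -0.0052, -0.0082 and -0.0043 in control samples). The same held for the non-ATPase subunits of base and lid (-0.029, 0.020 and 0.022 in BBMP, 0.031, -0.021 and 0.019 in control samples).

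**Figure D1:**
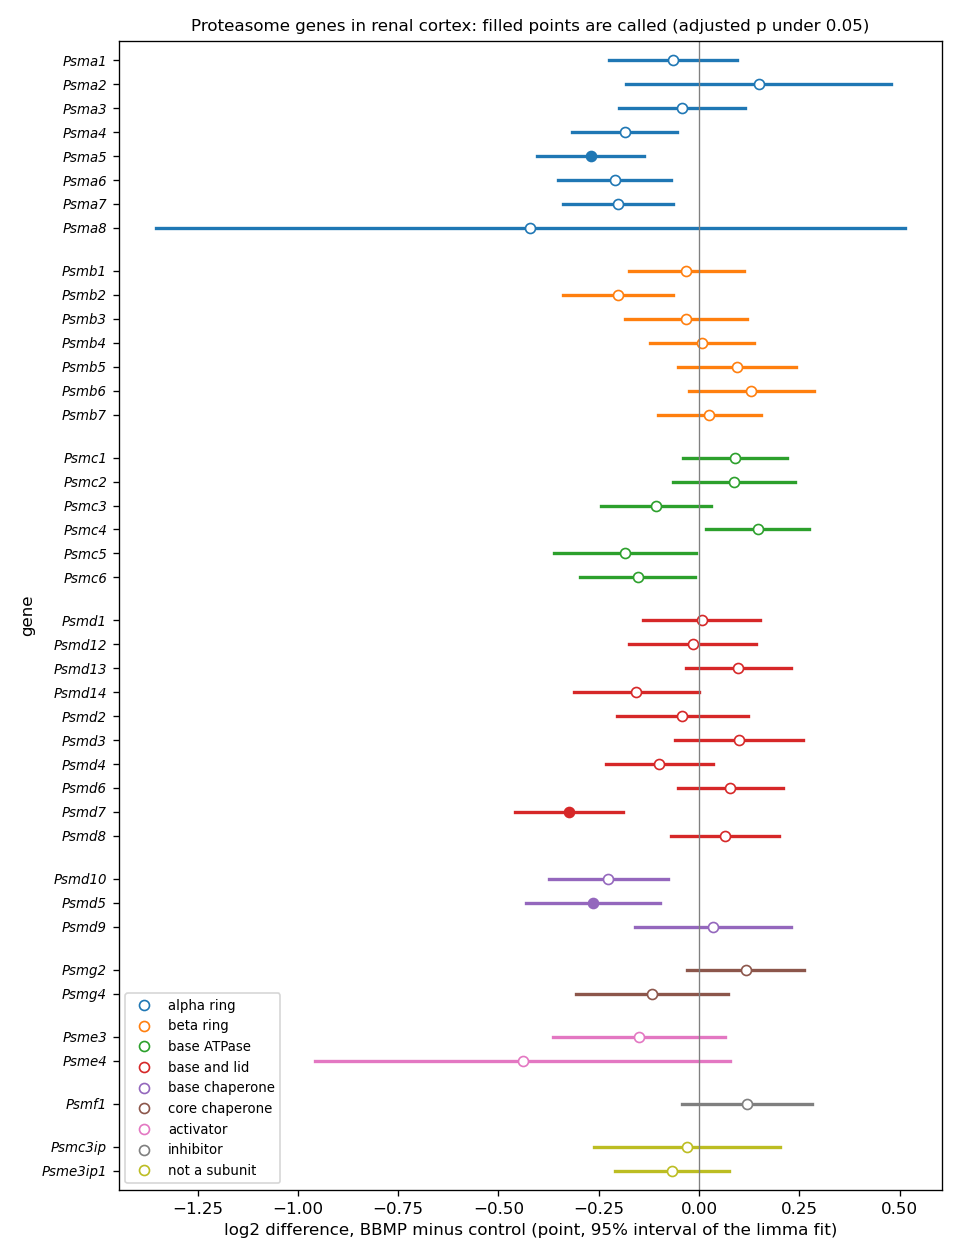
Log2 difference, BBMP minus control, of each of the 41 members (x axis) with the 95% interval of the limma fit, by role from the alpha ring at the top; filled points are the 3 called members. Of the 41 points 39 lie between -0.33 and 0.15, and those of Psma8 and Psme4, with wide intervals, are lower.

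**Figure D2:**
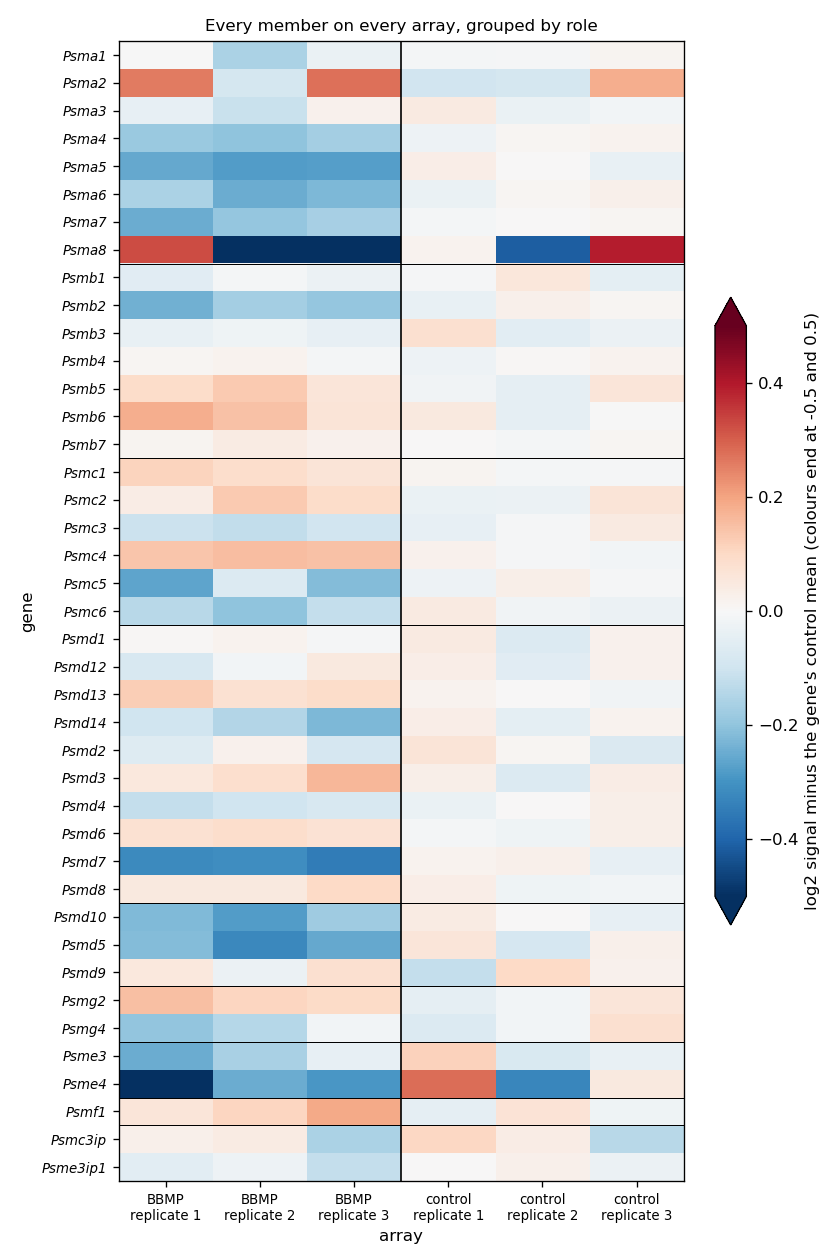
Log2 signal of every member on every array (columns, BBMP left and control right) minus the gene's control mean, in colour. Rows below 0 on all 3 BBMP arrays include those of Psma4, Psma5, Psma6, Psma7, Psmb2, Psmd5, Psmd7 and Psmd10. Those of Psmc3, Psmc5, Psmc6, Psmd4 and Psmd14, among others, are also below 0 there.

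The promoters of the 3 called members are shown first, since they are the genes that passed the test. Those of Psmb5 and Psmb6 follow as members that carry the letters of the antioxidant response element. Each runs from 250 bases before to 50 after the gene's start, 5′ to 3′ on the gene's strand, from RefSeq on GRCr8. Capitals mark the element's core TGACNNNGC and the CCAAT box, the letters that the factor NF-Y binds, each searched on both strands. The CCAAT box was added to the search after the data had been seen. Positions count from 0 at the start, and no 2 matches overlap in these 5. The Psma5 promoter (chr2:198584255-198584554, plus strand) holds CCAAT at -70 and -41, that of Psmd7 (chr19:52411267-52411566, minus strand) at -237 and -123, and that of Psmd5 (chr3:38548441-38548740, minus strand) holds neither motif. The element core begins at -60 in Psmb5 (chr15:32047330-32047629, minus strand) and at -24 in Psmb6 (chr10:55737638-55737937, plus strand).
Psma5: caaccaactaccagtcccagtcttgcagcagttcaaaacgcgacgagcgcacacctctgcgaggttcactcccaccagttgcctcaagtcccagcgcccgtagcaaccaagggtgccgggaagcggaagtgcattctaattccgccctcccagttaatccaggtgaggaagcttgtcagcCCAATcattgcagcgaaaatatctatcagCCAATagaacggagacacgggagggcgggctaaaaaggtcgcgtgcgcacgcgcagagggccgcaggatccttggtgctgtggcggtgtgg
Psmd7: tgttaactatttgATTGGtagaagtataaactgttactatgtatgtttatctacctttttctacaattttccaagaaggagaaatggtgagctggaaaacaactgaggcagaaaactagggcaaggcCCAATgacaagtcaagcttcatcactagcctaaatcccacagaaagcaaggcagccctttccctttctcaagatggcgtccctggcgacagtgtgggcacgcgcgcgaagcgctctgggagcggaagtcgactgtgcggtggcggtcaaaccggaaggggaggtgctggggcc
Psmd5: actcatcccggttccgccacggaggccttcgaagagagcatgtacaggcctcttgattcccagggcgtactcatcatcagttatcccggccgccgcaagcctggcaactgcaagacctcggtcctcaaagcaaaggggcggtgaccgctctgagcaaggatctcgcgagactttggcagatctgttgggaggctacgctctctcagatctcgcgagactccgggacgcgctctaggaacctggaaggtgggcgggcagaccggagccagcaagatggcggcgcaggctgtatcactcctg
Psmb5: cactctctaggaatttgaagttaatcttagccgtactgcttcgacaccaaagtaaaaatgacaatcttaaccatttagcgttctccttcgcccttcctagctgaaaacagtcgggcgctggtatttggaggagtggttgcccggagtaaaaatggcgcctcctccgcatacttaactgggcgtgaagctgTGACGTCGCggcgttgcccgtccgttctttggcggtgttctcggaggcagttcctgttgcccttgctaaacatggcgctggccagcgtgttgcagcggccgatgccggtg
Psmb6: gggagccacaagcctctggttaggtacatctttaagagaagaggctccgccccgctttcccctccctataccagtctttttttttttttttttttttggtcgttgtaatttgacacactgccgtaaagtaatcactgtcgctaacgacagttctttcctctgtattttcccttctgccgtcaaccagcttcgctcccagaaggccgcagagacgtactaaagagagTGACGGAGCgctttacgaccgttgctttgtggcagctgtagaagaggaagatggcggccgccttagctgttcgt

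A promoter was matched for 37 of the 41 members. The element core was found in 8 of them (21.6%), against 12.1% of all 33469 promoters and 14.3% of the 10352 promoters of genes tested. These 8 belong to Psma3, Psmb2, Psmb5, Psmb6, Psmd1, Psmd3, Psmd9 and Psme4, and none of them was called. CCAAT was found in 20 of the 37 (54.1%), against 37.5% of all promoters. It was present in 37.4% of the promoters of genes called lower and in 37.5% of those of genes called higher. In Psmb2 the element core at -68 shares a base with CCAAT at -72. The median GC content was 56% in the members' promoters and 51.7% in all promoters. These shares describe the letters in a window of 300 bases and show no binding.

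In the alpha ring, 7 of 8 genes had a lower mean in BBMP, and 1 was called. A lower mean was found in 87.5% of these 8, against 61.0% of the members and 43.6% of all genes. Among genes between the members' quartiles of signal it was found in 50.7%. Psma1 and Psma3, among the 7, turned positive with normexp background correction (0.055 and 0.0020). Psma5, a structural subunit of the ring, had log2 signals of 3.26, 3.24 and 3.24 on the BBMP arrays, against 3.55, 3.52 and 3.48 on the control arrays. Every BBMP value lay below every control value. The difference was -0.27 ± 0.054 (SE), with a limma adjusted p of 0.0272. RefSeq also lists pseudogenes of Psma5 and of other members, among them Psma6 and Psma7. Whether their transcripts reach the probes was not tested. The next largest differences without a call belonged to Psma8 and Psma6. Psma6, a structural subunit, gave 5.33, 5.24 and 5.26 on the BBMP arrays, against 5.45, 5.49 and 5.51 on the control arrays. Its groups did not overlap, and its difference of -0.21 ± 0.057 (SE) missed the threshold (limma adjusted p = 0.0558). Its other probe was at -0.055, and the mean of both at -0.13 (adjusted p = 0.138). Psma8 encodes a form of the ring used in spermatogenesis in mice. Only 1 of its 4 matched probes was tested, and its signal was the lowest of all members. Its signals were -4.81, -5.74 and -6.12 on the BBMP arrays, against -5.11, -5.54 and -4.74 on the control arrays, a spread wide enough that the groups overlapped, and its difference of -0.42 had a 95% interval of -1.35 to 0.51.

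Psma4 and Psma7, further structural subunits, also had groups that did not overlap. Psma4 signals were 5.36, 5.34 and 5.37 on the BBMP arrays, against 5.52, 5.55 and 5.56 on the control arrays, and Psma7 signals were 4.72, 4.78 and 4.80 on the BBMP arrays, against 4.96, 4.97 and 4.98 on the control arrays. All BBMP values of both genes were lower, at differences of -0.19 ± 0.053 (SE) and -0.20 ± 0.055 (SE), with limma adjusted p = 0.0613 and 0.0560. The remaining subunits, Psma1, Psma2 and Psma3, had overlapping groups and differences of -0.064, 0.15 and -0.044. Psma2 varied most among these, with SDs of 0.20 in BBMP and 0.16 in control samples (n = 3 each). The dimmer Psma1 probe was at -0.21, with every BBMP value below every control value (limma p adjusted over all probes = 0.0620). The mean of both Psma1 probes was at -0.14 (limma adjusted p = 0.151). Over the 8 genes the median difference was -0.19.

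In the beta ring, 0 of 7 genes were called, 1 had an unadjusted p under 0.05, and differences ran both ways around a median of 0.0070. Psmb2, a ring subunit without protease activity, gave 4.01, 4.07 and 4.05 on the BBMP arrays, against 4.21, 4.27 and 4.25 on the control arrays. Its 3 BBMP values were the lowest, at a difference of -0.20 ± 0.056 (SE) (limma adjusted p = 0.0576). In the 3 subunits that carry the protease sites every BBMP value lay above every control value, although the nearest pair in Psmb5 was 4.431 in BBMP and 4.429 in control and Psmb7 turned to -0.050 with median scaling. Groups lay apart in that direction in 24.4% of the members and 25% of all genes. None of the 3 had an unadjusted limma p under 0.05. Psmb6, the caspase-like subunit, gave 2.91, 2.87 and 2.79 on the BBMP arrays, against 2.77, 2.68 and 2.72 on the control arrays, a difference of 0.13 ± 0.063 (SE) (limma adjusted p = 0.194). Psmb5, the chymotrypsin-like subunit and the target of proteasome inhibitor drugs, gave 4.46, 4.50 and 4.43 on the BBMP arrays, against 4.35, 4.33 and 4.43 on the control arrays, a difference of 0.094 ± 0.059 (SE) (adjusted p = 0.300). For Psmb7, the trypsin-like subunit, the difference was 0.026 ± 0.052 (SE). The structural genes Psmb1, Psmb3 and Psmb4 were at -0.032, -0.033 and 0.0070, with overlapping groups. Psmb4 also turned negative with quantile normalization, cyclic loess, median scaling and the slide row as a block (-0.0011 to -0.068). The dimmer Psmb4 probe was at 0.14, with every BBMP value above every control value (limma p adjusted over all probes = 0.121).

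**Figure D3:**
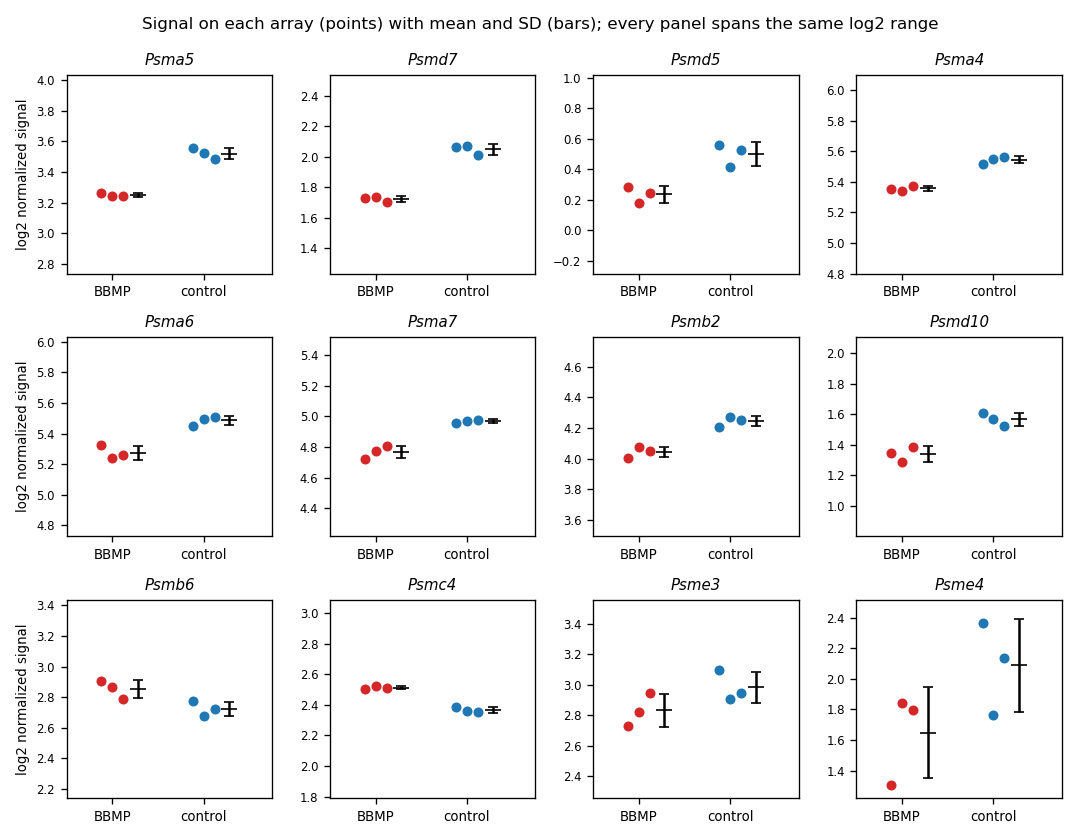
Log2 normalized signal (y axis, the same span of 1.3 in each panel) of 12 members on each BBMP and control array, with mean and SD (n = 3 each). The groups are apart in all panels but those of Psme3 and Psme4; Psmb6 and Psmc4 are higher in BBMP.

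The ATPase ring, which unfolds substrates, had 0 of 6 genes called, with 3 at an unadjusted p under 0.05. Psmc5 gave 5.52, 5.71 and 5.57 on the BBMP arrays, against 5.76, 5.81 and 5.78 on the control arrays. Its BBMP values were all below the control values, with BBMP replicate 2 nearest to them, at a difference of -0.18 ± 0.072 (SE) (limma adjusted p = 0.126). Psmc6 gave 3.23, 3.17 and 3.26 on the BBMP arrays, against 3.42, 3.36 and 3.35 on the control arrays, a difference of -0.15 ± 0.058 (SE) (adjusted p = 0.118). Its groups also did not overlap, again lower in BBMP, but 1 of its other probes was at 0.020. Psmc4 differed in the other direction: its signals were 2.50, 2.52 and 2.51 on the BBMP arrays, against 2.39, 2.36 and 2.35 on the control arrays, with the BBMP values all higher, at 0.15 ± 0.052 (SE) (adjusted p = 0.103). The other ATPase genes, Psmc1, Psmc2 and Psmc3, were at 0.088, 0.087 and -0.11, with groups apart in Psmc1 and Psmc3. The 6 subunits, which stand in 1 ring in equal numbers, thus had 3 positive and 3 negative differences.

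Of 10 non-ATPase subunits of the base and lid, 1 was called. Psmd7, a lid subunit that pairs with the deubiquitinase Psmd14, had log2 signals of 1.73, 1.74 and 1.70 on the BBMP arrays, against 2.07, 2.07 and 2.01 on the control arrays. The groups did not overlap, and the difference of -0.33 ± 0.055 (SE) was the largest among called members (limma adjusted p = 0.0193). Psmd14, which cuts the ubiquitin chain off the substrate, gave 0.73, 0.68 and 0.60 on the BBMP arrays, against 0.86, 0.78 and 0.84 on the control arrays. These values did not overlap either, but the difference of -0.16 ± 0.063 (SE) did not pass (adjusted p = 0.135). Psmd3, a scaffold subunit of the lid, gave 2.02, 2.05 and 2.13 on the BBMP arrays, against 2.0, 1.90 and 2.01 on the control arrays. All 3 BBMP values were the higher ones, at 0.10 ± 0.065 (SE) (adjusted p = 0.311), although with normexp background correction the difference was -0.0012.

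The ubiquitin receptor gene Psmd4 was at -0.10, with its BBMP values below the control values. The lid genes Psmd6, Psmd8 and Psmd13 were at 0.078, 0.065 and 0.10, with their BBMP values above the control values, although Psmd8 was at -0.010 with median scaling. None of these 4 was called (limma adjusted p from 0.237 to 0.437). The large base scaffold genes Psmd1 and Psmd2 and the lid gene Psmd12 were at 0.0059, -0.042 and -0.015, with overlapping groups.

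Of the 3 members that act as chaperones in assembling the cap's base, Psmd5 was called. It gave 0.28, 0.18 and 0.25 on the BBMP arrays, against 0.56, 0.41 and 0.52 on the control arrays. The highest BBMP value, 0.28, was below the lowest control value, 0.41, and the difference was -0.26 ± 0.068 (SE) with a limma adjusted p of 0.0484, close to the threshold. Psmd10, which encodes gankyrin, gave 1.35, 1.29 and 1.39 on the BBMP arrays, against 1.61, 1.57 and 1.52 on the control arrays. Its BBMP values were all lower, at -0.23 ± 0.060 (SE), and it missed the threshold narrowly (adjusted p = 0.0523). Psmd9 had signals of 3.97, 3.89 and 4.0 on the BBMP arrays, against 3.80, 4.02 and 3.94 on the control arrays. These overlapped, at a difference of 0.034 ± 0.079 (SE) (adjusted p = 0.784).

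The chaperones of the core were measured through Psmg2 and Psmg4. Psmg2 gave -0.16, -0.20 and -0.21 on the BBMP arrays, against -0.35, -0.32 and -0.25 on the control arrays, and Psmg4 gave 2.64, 2.69 and 2.82 on the BBMP arrays, against 2.77, 2.82 and 2.92 on the control arrays. Psmg2 was higher on all BBMP arrays and Psmg4 overlapped between groups, and neither was called, at 0.12 ± 0.059 (SE) and -0.12 ± 0.077 (SE) (limma adjusted p = 0.212 and 0.318). Psme3 encodes a nuclear activator that opens the core without ubiquitin. Its signals were 2.73, 2.82 and 2.94 on the BBMP arrays, against 3.10, 2.90 and 2.94 on the control arrays, which overlapped, at -0.15 ± 0.087 (SE) (adjusted p = 0.262). Psme4, a second activator, best known from testis, gave 1.31, 1.84 and 1.80 on the BBMP arrays, against 2.37, 1.76 and 2.14 on the control arrays. Values within each group differed by over 0.5 on the log2 scale, the groups overlapped, and the difference of -0.44 had a 95% interval of -0.96 to 0.078. Psmf1, which encodes an inhibitor of the core, gave 2.71, 2.76 and 2.84 on the BBMP arrays, against 2.61, 2.72 and 2.63 on the control arrays, with overlapping groups and a difference of 0.12 ± 0.066 (SE) (adjusted p = 0.242).

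The members that are no subunits also had overlapping groups. Psmc3ip, a cofactor of meiotic recombination, was at -0.030 ± 0.094 (SE), and at 0.091 with normexp and 0.11 with the slide row as a block. Psme3ip1, a partner of the Psme3 product, was at -0.067 ± 0.058 (SE), and was among the 8 members called lower with normexp. Across all 41 members the SE of the difference had a median of 0.059 and reached 0.38 in Psma8. The 95% interval excluded a 1.5-fold change in either direction for 36 of the 38 members not called, the exceptions being Psma8 and Psme4. For 9 of those 38 the interval, which is not adjusted for the number of genes, excluded 0.

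How far the 3 calls held was set against every array left out in turn. Without control replicate 3, limma still called Psma5 (-0.29, adjusted p = 0.0485) and Psmd7 (-0.35, adjusted p = 0.0385). Without BBMP replicate 1, 2 or 3 or control replicate 1 or 2, it called 0 members, with 8 to 9 of those lower in BBMP at an unadjusted p under 0.05. In the 6 fits, the difference lay between -0.29 and -0.25 for Psma5, between -0.35 and -0.31 for Psmd7 and between -0.31 and -0.23 for Psmd5. Their adjusted p reached 0.0869, 0.0676 and 0.135, and for Psmd5 the lowest was 0.0707. Without BBMP replicate 1 or 2, only 2 and 4 of all 31880 and 32189 genes tested were called.

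Several probes were tested for 22 members. Of their 30 further probes, 25 had the sign of the brightest probe, and all probes had the same sign in 17 of the 22 genes. The probes of Psmb3, Psmc6, Psmd2, Psme3 and Psmf1 differed in sign, and none of these probes was called. Of all 42657 probes tested, 10.3% were called higher and 7.46% lower in BBMP, and of the 30 further probes 1 was called in each direction. Psmd7 had further probes at -0.21 and -0.10, neither called (limma p adjusted over all probes = 0.0513 and 0.282). Psma5 and Psmd5 each had 1 tested probe. With the mean of all probes the difference was over 1.5 times smaller in 8 of the members that differed by over 0.1 on the log2 scale. Psmd7 was then at -0.21 and still called (adjusted p = 0.0496), Psma6, Psmc6, Psmg4, Psme3 and Psme4 lay between -0.25 and -0.017, and Psmc4 and Psmf1 were at 0.091 and 0.061.

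In Psmd1 and Psma3 a dimmer probe was called while the brightest was not. The dimmer Psmd1 probe gave 2.76, 2.86 and 2.82 on the BBMP arrays, against 2.32, 2.33 and 2.34 on the control arrays. It was higher on every BBMP array, with a difference of 0.48 ± 0.057 (SE) and a limma p of 0.0123 after adjustment over the probes, while the brightest Psmd1 probe gave 5.19, 5.20 and 5.18 on the BBMP arrays, against 5.23, 5.12 and 5.21 on the control arrays, overlapping at 0.0059. The dimmer Psma3 probe gave 1.68, 1.60 and 1.81 on the BBMP arrays, against 2.07, 2.07 and 2.01 on the control arrays. It was called lower at -0.35 ± 0.075 (SE) (limma adjusted p = 0.0310), against -0.044 for the brightest probe, whose groups overlapped. With the mean of all probes, Psmd1 was called higher at 0.24 (adjusted p = 0.0367) and Psma3 was not called. Which transcripts of a gene each probe detects was not analysed here.

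**Figure D4:**
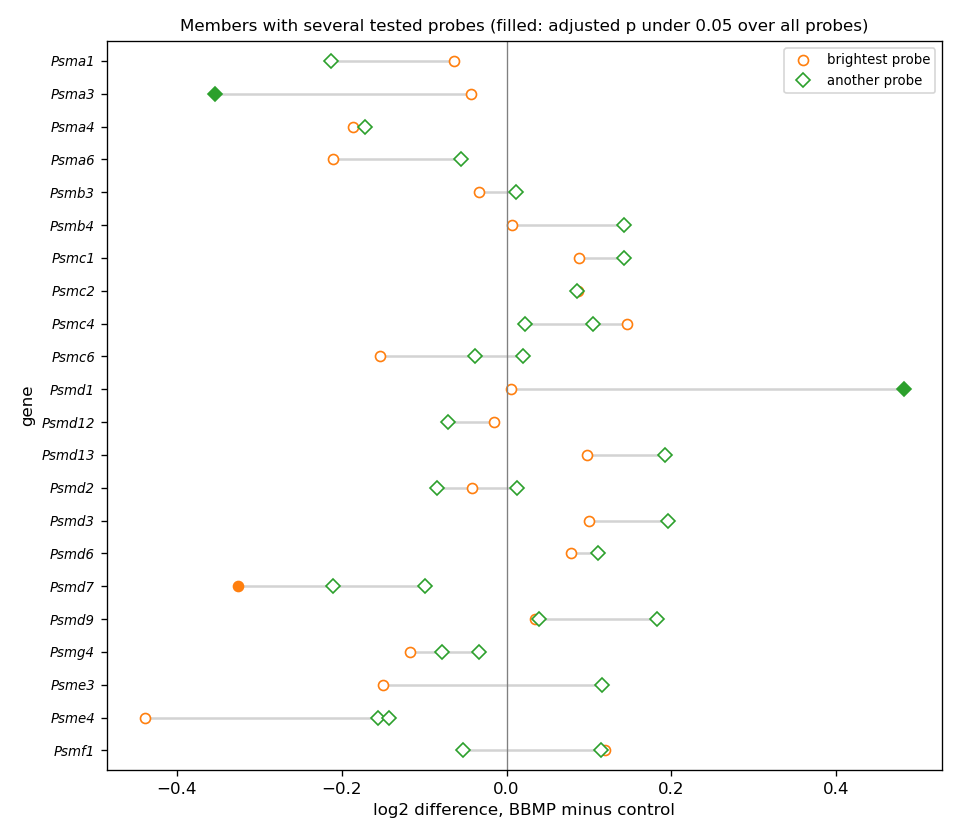
Log2 difference, BBMP minus control (x axis), of every tested probe of the 22 members with several probes, with the brightest probe as a circle and others as diamonds; filled symbols passed an adjusted p of 0.05 over all probes. The filled diamonds are the dimmer probes of Psmd1 (0.48) and Psma3 (-0.35), and the filled circle is Psmd7.

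The 5 interferon-inducible genes that the symbol rule leaves out were set beside the members. Psme1, a subunit of the activator that interferon induces, gave 5.40, 5.31 and 5.42 on the BBMP arrays, against 5.19, 5.09 and 5.05 on the control arrays. Every BBMP value was higher, at 0.26 ± 0.067 (SE) (limma adjusted p = 0.0460), and the call was lost with normexp, quantile normalization, cyclic loess, median scaling, no filter on dim probes and the mean of all probes, at 0.16 to 0.26. Its partner Psme2 was at 0.056 ± 0.061 (SE) (adjusted p = 0.547). The protease subunit genes Psmb9 and Psmb10 were lower on every BBMP array, at -0.19 ± 0.070 (SE) and -0.24 ± 0.071 (SE), and did not pass (adjusted p = 0.111 and 0.0678), and Psmb8 was at 0.031 ± 0.076 (SE).

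Of 36 further genes of the ubiquitin-proteasome system in the list used, 29 were tested, 4 were called higher and 2 lower. That is 13.8% and 6.90%, against 10.2% and 7.68% of all genes, and the median difference was -0.065. Uba1, the enzyme that activates ubiquitin, gave 5.13, 5.25 and 5.27 on the BBMP arrays, against 4.76, 4.80 and 4.98 on the control arrays. Its BBMP values were all higher, at 0.37 ± 0.084 (SE) (limma adjusted p = 0.0365). Vcp, the ATPase that extracts tagged proteins from complexes, rose by 21.0% (limma adjusted p = 0.0335), and Bag6, a chaperone for misplaced membrane proteins, by 18.1% (adjusted p = 0.0409). With median scaling Uba1, Vcp and Bag6 lost their calls, at log2 differences of 0.16 to 0.29, and with no filter on dim probes they lost them at unchanged differences (adjusted p from 0.0547 to 0.0608). Uba1 also lost its call with the mean of all probes, at 0.23 (adjusted p = 0.0664).

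Ngly1, the enzyme that removes sugar chains from proteins and processes NFE2L1, gave 3.08, 2.98 and 3.0 on the BBMP arrays, against 3.25, 3.29 and 3.24 on the control arrays. It was lower on every BBMP array, at -0.24 ± 0.058 (SE) (limma adjusted p = 0.0408), and was not called with normexp (-0.14) or with no filter on dim probes (adjusted p = 0.0605). The shuttle gene Ubqln2 was called lower at -0.31 ± 0.061 (SE) (adjusted p = 0.0270), but the mean of its probes was 0.34 and not called. The largest differences without a call belonged to Ubqln4 (0.28), the deubiquitinase gene Usp14 (-0.24), Akirin2, which carries proteasomes into the nucleus (-0.23), and the ubiquitin-conjugating enzyme gene Ube2d3 (-0.19). Nfe2l1 itself, chosen for mention after its value was seen, was at -0.12 ± 0.061 (SE) (adjusted p = 0.217). Without BBMP replicate 1, 2 or 3 or control replicate 1 or 2, none of Psme1, Uba1, Vcp, Bag6, Ngly1 and Ubqln2 was called, and without control replicate 3 Uba1 and Vcp were.

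Tissue and array measures bear on all these values. The 75th percentile of the processed signal was 1244 to 1259 on the BBMP arrays and 943 to 950 on the control arrays, with 70.5% to 72.7% and 67.2% to 68.6% of probes well above background. Of 12 renal cortex markers, 11 had a matched probe and all 11 were well above background on all 6 arrays, with summed relative signals of 1581 to 1668 in BBMP and 1493 to 1656 in control samples. Of 7 adrenal markers, Th and Cyp21a1 were called higher, the summed signal was 3.40 to 3.56 in BBMP and 2.70 to 2.73 in control samples, and Cyp11b1, Dbh and Star did not reach the well-above-background flag on any of the 6. Of 5 urothelium markers Upk1b was called higher, Upk2 was never well above background, and the sum was 0.308 to 0.429 in BBMP and 0.266 to 0.330 in control samples. No call was made among 6 leukocyte, 3 adipocyte and 3 erythroid markers (summed signals of 3.53 to 4.09, 0.980 to 1.46 and 212 to 249 in BBMP samples, and 3.63 to 4.03, 0.727 to 1.07 and 192 to 228 in control samples), Lep was never well above background, and limma gave 0, 0 and 1 of their tested genes an unadjusted p under 0.05. Their part in the proteasome differences was not tested.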

How the data were processed

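Renal cortex RNA of 3 BBMP and 3 control rats was read on 1 Agilent array each. Per the file headers, the authors' Feature Extraction 10.7.1.1 gave the deposited intensity: a processed signal, already corrected for background, and a median signal with its local background; the submitters' processing notes name version 10.7. The deposited flags, scored 0 or 1, mark spots well above background, saturated or outlying, and no member was saturated. The authors' deposited table gives a ratio per probe, equal to the processed signal of 1 scanner file over its 75th percentile, with linear scale and no centring, as matching it to those files showed (column medians 0.1064 to 0.1131, 99% of probes with a ratio above 0.1 within 5.42e-04 on the log2 scale). The matching file always bore another replicate number of the same group, shifted alike in BBMP and control samples, which leaves single replicate numbers in doubt but neither the groups nor the numbers that go together.

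Of 61657 probes not marked as controls, 84 with ERCC spike-in sequences and 10 with outlier flags were left out. Each log2 signal, less its array's 75th percentile, entered a two-sided limma test (version 3.58.1, lmFit and eBayes, R 4.3.3), with Benjamini-Hochberg adjustment over 31582 genes or sequences. A probe was tested if well above background on all 3 arrays of a group, and a gene was read from its brightest tested probe. Names came from RefSeq accessions in a GRCr8 table (27452 of 61563 probes). Precision is limited by how few arrays there were. Lists were fixed by symbol, and signals in every sample were given for called members and the 2 largest differences without a call in each role. Those of Psma4, Psma7, Psmb5 and Psmc4 and of probes of Psmd1 and Psma3 were given beyond this rule. Members, lists and rules were chosen with earlier results of these data known. Some genes of the lists are not reported here. Normexp used the median signal with an offset of 50. Per the labels' protocols, each group was 3 animals. Figures were drawn with matplotlib 3.10.9 in Python 3.11.15.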

Additional observations from a re-analysis of the deposited data

How the results depend on the processing

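Of the 3 members called lower, Psma5 and Psmd7 kept their calls with normexp, quantile normalization, cyclic loess, median scaling, the percentile over detected probes, the authors' ratio table, a stricter filter that asked for signal above background on every array, the mean of all probes and trend and robust moderation; Psmd5 lost its call in 4 of these (adjusted p from 0.0507 to 0.0583). With no filter on dim probes Psma5 and Psmd5 lost theirs (0.0503 and 0.0664). Members called lower numbered 8 with normexp, 9 with median scaling, 8 with trend and robust moderation, 6 with the stricter filter, 1 with no filter on dim probes, and 0 with slide row as a block, where 5 had an unadjusted p under 0.05. Called higher were 1 with normexp (Psmc4) and 1 with the mean of all probes (Psmd1), otherwise 0. Leaving out 1 array gave 0 to 2 called lower and 0 called higher, and a median difference of -0.058 to -0.026. Deviations of same-numbered BBMP and control samples from their group means correlated at -0.117, -0.082 and -0.068, and no sample correlated best with its own number. As these are deviations from means of 3 samples, this check cannot show that same-numbered samples share only a number. With the replicate block, limma called 0 members (7 lower at an unadjusted p under 0.05) and 0 of all genes higher or lower, where 5923 and 4020 had an unadjusted p under 0.05.

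The median difference of the members was -0.019 with normexp and -0.12 with median scaling. Normexp moved the median of all genes to -0.062, against 0.049, so the members' median stood 0.043 above that of all genes with normexp, and it lay below it in the setting reported. Of all genes, 2102 were called higher with median scaling, 2102 with no filter on dim probes and 0 with slide row as a block (4179 at an unadjusted p under 0.05), against 3232; called lower were 5109 with normexp, 3749 with median scaling and 0 with slide row as a block (3109), against 2427. The share of calls that were higher was 57.1%, against 36.4% with normexp, 35.9% with median scaling and 46.6% with cyclic loess. Leaving out 1 array gave 2 to 2399 called higher and 0 to 1568 called lower, with 2 and 4 higher and 0 lower without BBMP replicate 1 or 2.

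Some signs turned, among them that of Psma2, whose difference of 0.15 was the highest of the members. With normexp these were Psma1 (0.055), Psma3 (0.0020), Psmd3 (-0.0012) and Psmc3ip (0.091), with quantile normalization Psmb4 (-0.017) and Psmd1 (-0.018), and with cyclic loess Psmb4 (-0.0011) and Psmd1 (-0.0023). Median scaling turned Psmb4 (-0.068), Psmb7 (-0.050), Psmd1 (-0.069), Psmd8 (-0.010) and Psmd9 (-0.041). Slide row as a block turned Psma2 (-0.035), Psmb1 (0.017), Psmb4 (-0.010), Psmd1 (-0.016), Psmd2 (0.030) and Psmc3ip (0.11). The mean of all probes turned Ubqln2 (0.34). With 1 array left out, the ranges were -0.059 to 0.0072 for Psmb3, -0.0050 to 0.016 for Psmb4, -0.028 to 0.029 for Psmd1, -0.047 to 0.017 for Psmd12, -0.026 to 0.084 for Psmd9 and -0.10 to 0.033 for Psmc3ip. Under the scalings and background correction tried, 9 members turned and 32 kept their sign. The cause of these changes was not tested. Slide row 2 held control arrays only, so its block rests on 1 control array in row 1.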
